A study of Homo sapiens with 9 samples.

Results

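The kinetochore, the spindle and the machinery of mitotic exit were examined through 53 genes, found by their listed names in both count tables of a PC3 xenograft experiment, of 16008 genes that the tables share. PC3 is a cell line from a prostate cancer metastasis. Cells had been injected under the skin of male NSG mice, an immunodeficient strain that lacks T, B and NK cells but keeps myeloid cells, fibroblasts and vessels of its own. Once tumors had formed, mice were given PBS as vehicle or 5 mg/kg of an antibody-drug conjugate weekly, and RNA-Seq was performed on tumors at endpoint, with 3 libraries from mice given PBS, 3 titled PDXd and 3 titled TDXd. P-DXd (patritumab deruxtecan) binds HER3, T-DXd (trastuzumab deruxtecan) binds HER2, and both carry the topoisomerase I inhibitor DXd. For each of the 6 treated libraries the treatment field names the other conjugate than the title does, so the groups are called PDXd-titled and TDXd-titled. The count tables and their columns carry the same conjugate names as the titles, and which conjugate each received could not be settled here. The record gives mice 11 weeks old at injection and 5 cycles from a tumor volume of 90 mm3. The study's methods give these values for a separate experiment with a higher dose of T-DXd. For the 5 mg/kg experiment they give another value for each. Titles carry a code each but do not state what it identifies or how many tumors a mouse bore, and p-values measure the spread between these libraries.

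In mitosis, chromosomes attach to spindle microtubules through the kinetochore, a layered assembly built on nucleosomes that carry the histone variant CENPA. Unattached kinetochores recruit BUB and MAD proteins, the spindle assembly checkpoint, which keeps CDC20 from activating the anaphase-promoting complex (APC/C), and when the last chromosome attaches, the APC/C marks securin and cyclin B for destruction, separase cuts cohesin and the cell exits mitosis and divides. Most of these genes are transcribed late in the cell cycle and are silent in resting cells, so their messages are widely read as marks of proliferating tumor cells. By complex, the 53 genes comprised 11 of the inner kinetochore, 10 of the outer kinetochore, 3 of the corona, 5 of the checkpoint, 4 of the chromosomal passenger complex, 2 that protect cohesion, 6 of the spindle, 3 of cytokinesis, 4 of anaphase and exit and 5 of condensin I.

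Total counts ranged from 54481702 to 125538606 per library, every PBS library was deeper than every treated library, and the lowest count of any of the 53 genes in any library was 78 (CENPK). PBS replicate 1 stood apart, since it was the highest of all 9 libraries for 52 of the 53 genes, ASPM being the exception, and the genes' summed level in CPM, a gene's counts scaled to a common library size, was 5008 CPM there against 3352 and 3107 CPM in PBS replicates 2 and 3. The counts of the 53 genes called against PBS, and their medians, are therefore also given without it. Among tumor cell markers, the summed level of KRT8, KRT18, KRT19, EPCAM, CDH1 and VIM was 1935 to 2695 CPM in PBS and 3454 to 4021 CPM in treated libraries, and PBS replicate 1 held the lowest value. Of 10 fibroblast markers, all listed, the sum was 1065 to 2073 CPM in PBS, highest in replicate 1, and 1256 to 2259 CPM in treated libraries, carried by collagens, while THY1 stayed at or under 0.179 CPM. For macrophages, 4 of 6 markers were listed and summed to 3.93 to 6.03 CPM in PBS and 11.3 to 20.7 CPM in treated libraries, with CD68 at or under 0.122 CPM. For endothelium, 5 of 6 were listed and summed to 5.74 to 9.68 CPM in PBS and 7.10 to 11.3 CPM in treated libraries. All 6 skeletal muscle markers were listed and summed to 0.721 to 29.3 CPM in PBS and 129 to 176 CPM in TDXd-titled libraries. In PDXd-titled replicates 1 to 3 they summed to 48.5, 2843 and 165 CPM, so the high value was that of replicate 2 alone. The sources do not state whether reads of mouse tissue were removed, the part of these cells in the results below was not tested, and in a bulk tumor fewer dividing cells and less RNA per cell cannot be told apart.

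The first question was how the division machinery stood in tumors that remained after either conjugate. All 53 genes were measured and tested, and all 53 were lower than PBS in every comparison. Compared with PBS, 49 of 53 genes (92.5%) fell in PDXd-titled xenografts, where 13.8% of all genes tested were called lower, and 49 (92.5%) fell in TDXd-titled xenografts, where the share of all genes was 15.5%. With the 6 treated libraries pooled, 50 of 53 (94.3%) fell, against 17.1% of all genes, none was among the 15.2% of genes called higher, and for 52 of 53 (98.1%) every treated library lay below every PBS library, against 25.5% of all genes. Log2 fold changes are given with their standard error (SE) for all treated libraries against PBS unless another comparison is named. A gene was called at an adjusted p at or below 0.05 by edgeR's quasi-likelihood test with Benjamini-Hochberg adjustment and a fold change of at least 1.5. The median log2 fold change of the 53 genes was -2.08 in PDXd-titled, -2.46 in TDXd-titled and -2.26 in all treated xenografts, where the medians of all genes were -0.0053, -0.019 and -0.014. Falls of at least 4-fold were fitted for 33 genes in PDXd-titled and 37 in TDXd-titled xenografts, and falls of at least 8-fold for 1 and 10 genes. The 3 comparisons share the PBS libraries. Without PBS replicate 1 the counts were 49, 49 and 49 and the medians -1.82, -2.17 and -2.01.

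**Figure D1:**
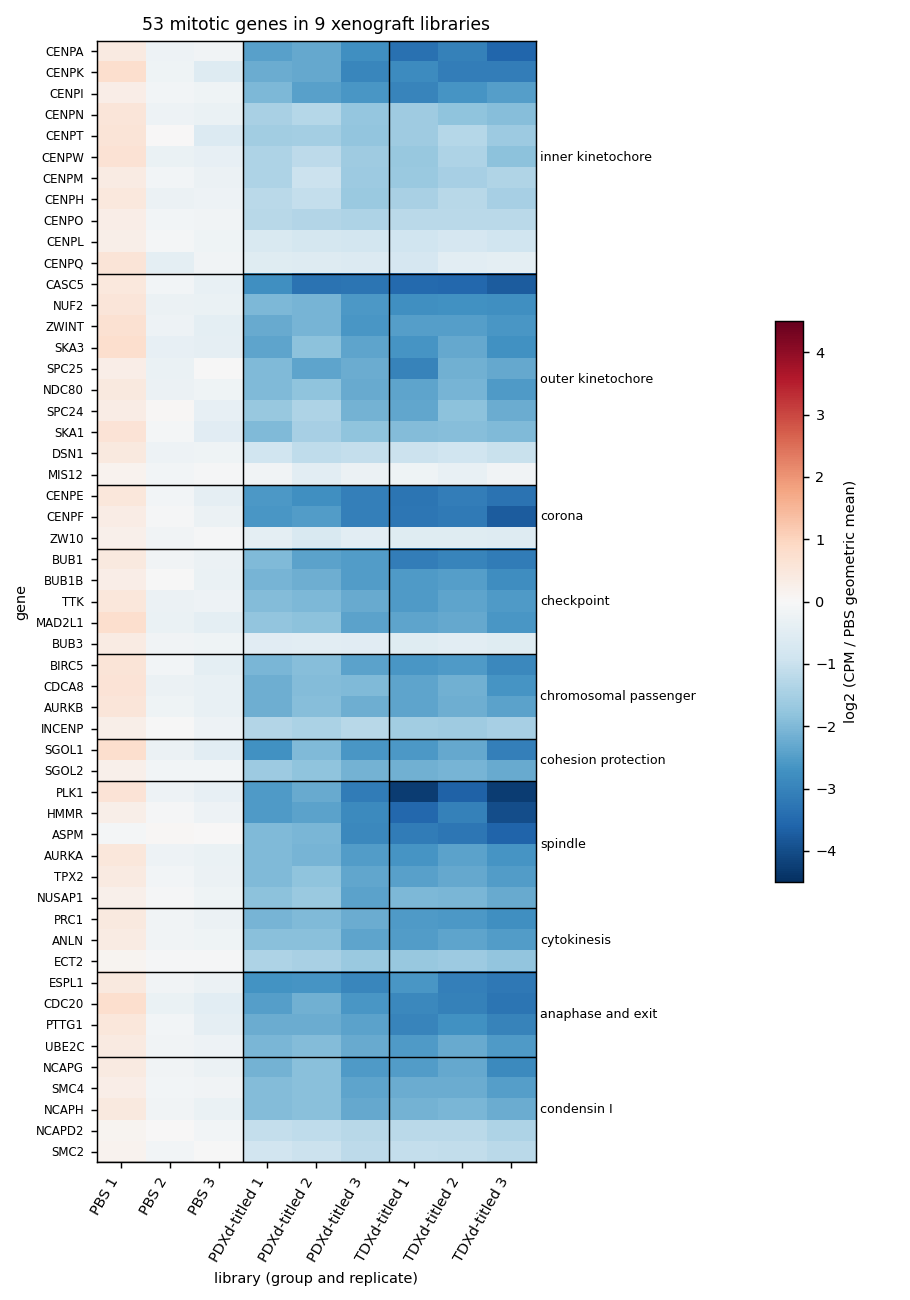
Level of each of the 53 genes (rows, grouped by complex) in each of the 9 libraries (columns), as log2 of CPM over the geometric mean of the 3 PBS libraries of that gene. The treated columns were blue throughout, palest for MIS12, BUB3, ZW10 and CENPQ, and PBS replicate 1 was the reddest column.

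The promoters of these genes are shown because a short element there is known to tie them to the cell cycle. The cell cycle genes homology region (CHR, letters TTTGAA) is bound by MuvB complexes, which hold mitotic genes silent in resting cells and activate them together with B-MYB and FOXM1 in dividing cells, and the CCAAT box (letters CCAAT) is bound by NF-Y. RefSeq promoters of build GRCh38.p14, from 250 bases before to 50 bases after the start, were matched for 43 of the 53 genes, and CENPH, CENPL, CENPM, CASC5, BUB3, TTK, BIRC5, AURKA, TPX2 and UBE2C were not matched. On either strand the CHR letters were in 28 of 43 (65.1%) of these promoters, in 10.6% of the 12515 promoters of genes listed in the count tables and in 15.4% of all 27305 promoters. In 23 of the 43 they began within 40 bases of the start. The CCAAT letters were in 29 of 43 (67.4%), against 36.1% and 35.7%, and both were in 18 (41.9%), against 4.32% and 6.08%. Letters of an E2F site (TTTCCCGC, TTTGGCGC or TTTCGCGC) were in 3 of 43 (6.98%), against 4.05% and 2.79%. Neither CHR nor CCAAT letters were found for CENPE, CENPI, CENPT and DSN1, of which CENPE had 1 of the largest falls. Only 1 start per gene was searched, so letters near any other start of a gene would be missed. The median log2 fold change against PBS was -2.31 for the 28 genes with CHR letters and -2.12 for the 15 without, with ranges of -3.22 to -0.54 and -3.05 to -0.26. The genes printed below are examples, and whether CHR letters go with the size of the fall was not tested. The 4 printed with large falls held CHR letters and the others did not. Among genes not printed, ZW10 (-0.54) held them, and CENPK (-2.81), BUB1 (-2.66) and PTTG1 (-2.61) did not. The 120 bases before the start follow for 4 genes that fell by more than the median gene and for MIS12 and CENPQ, with small falls. They are written 5′ to 3′ on the strand of the gene. Capitals mark the CHR and CCAAT letters and their reverse complements (TTCAAA and ATTGG). They lie at chr16:23678769-23678888 (plus strand) for PLK1, chr1:43358861-43358980 (plus strand) for CDC20, chr5:163460512-163460631 (plus strand) for HMMR, chr15:90994536-90994655 (minus strand) for PRC1, chr17:5486254-5486373 (plus strand) for MIS12 and chr6:49463250-49463369 (plus strand) for CENPQ.
PLK1: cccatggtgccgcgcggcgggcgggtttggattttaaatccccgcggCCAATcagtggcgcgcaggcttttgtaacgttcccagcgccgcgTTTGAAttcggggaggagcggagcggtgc
CDC20: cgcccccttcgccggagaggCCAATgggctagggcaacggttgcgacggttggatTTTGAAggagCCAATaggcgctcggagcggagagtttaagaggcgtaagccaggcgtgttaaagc
HMMR: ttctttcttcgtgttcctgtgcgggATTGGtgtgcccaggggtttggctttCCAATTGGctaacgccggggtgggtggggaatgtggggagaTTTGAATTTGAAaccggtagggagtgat
PRC1: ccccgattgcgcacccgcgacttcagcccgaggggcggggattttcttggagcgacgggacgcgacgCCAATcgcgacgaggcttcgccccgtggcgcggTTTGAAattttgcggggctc
MIS12: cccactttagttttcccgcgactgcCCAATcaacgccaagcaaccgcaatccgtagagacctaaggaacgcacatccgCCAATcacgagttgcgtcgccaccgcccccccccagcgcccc
CENPQ: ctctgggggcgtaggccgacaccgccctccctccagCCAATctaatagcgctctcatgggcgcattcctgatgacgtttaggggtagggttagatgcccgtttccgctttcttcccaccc
In PLK1 the CHR letters began 29 bases before the start and the CCAAT letters 73 bases before it. HMMR held CHR letters in a direct repeat, 28 and 22 bases before the start, and in PRC1 they began 20 bases before it. MIS12 held CCAAT letters 95 and 42 bases before the start and CENPQ held them 84 bases before it, and no CHR letters were found in either window. A match of letters is a description of the window and shows neither binding nor control.

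At the inner kinetochore, which sits on centromeric chromatin, 10 of 11 genes fell with each conjugate, with a median log2 fold change of -1.58 in all treated xenografts. CENPA, the histone H3 variant that marks the centromere, was at 36.4, 23.4 and 24.9 CPM in PBS replicates 1 to 3, 5.11, 5.63 and 4.05 CPM in the PDXd-titled replicates and 2.70, 3.38 and 2.31 CPM in the TDXd-titled replicates. All 6 treated libraries lay far below the PBS libraries, and the TDXd-titled libraries lay below the PDXd-titled ones. CENPA fell, with a log2 fold change of -2.87 ± 0.26 (SE, adjusted p = 1.41e-05). The histone-fold partners CENPT and CENPW link centromeric DNA to the microtubule-binding NDC80 complex. CENPT was at 29.7, 20.2 and 12.97 CPM in PBS replicates 1 to 3, 6.68, 6.83 and 5.75 CPM in the PDXd-titled replicates and 6.56, 8.07 and 6.32 CPM in the TDXd-titled replicates. CENPW was at 42.9, 21.8 and 21.1 CPM in PBS replicates 1 to 3, 10.3, 11.9 and 9.02 CPM in the PDXd-titled replicates and 8.35, 10.2 and 7.55 CPM in the TDXd-titled replicates. Their log2 fold changes were -1.64 ± 0.20 (SE, adjusted p = 9.15e-05) and -1.58 ± 0.22 (SE, adjusted p = 0.000173), and the treated groups of each overlapped one another but not PBS. CENPQ, of the CENP-O group of proteins, was at 22.2, 11 and 13.3 CPM in PBS replicates 1 to 3, 10.1, 9.93 and 9.77 CPM in the PDXd-titled replicates and 8.80, 10.7 and 11.04 CPM in the TDXd-titled replicates. PBS replicate 2 lay within the treated libraries, so CENPQ was the 1 gene of 53 whose PBS and treated libraries overlapped. It was not called with either conjugate alone, at -0.62 ± 0.26 (SE, adjusted p = 0.0959) and -0.60 ± 0.27 (SE, adjusted p = 0.107), and fell with all treated libraries at -0.62 ± 0.18 (SE, adjusted p = 0.0149), a call that was lost without PBS replicate 1 (-0.26, adjusted p = 0.0570). The CENP-HIKM genes CENPK, CENPI, CENPM and CENPH had log2 fold changes of -2.81, -2.51, -1.43 and -1.39. CENPN, CENPO and CENPL, the rest of the 11 genes listed here, had -1.67, -1.28 and -0.82.

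At the outer kinetochore, which grips the microtubule, 9 of 10 genes fell in each comparison, with a median of -2.26 in all treated xenografts. CASC5 (KNL1), the scaffold on which BUB1 and BUB3 dock, was at 63.2, 41.7 and 35.7 CPM in PBS replicates 1 to 3, 6.74, 4.57 and 4.70 CPM in the PDXd-titled replicates and 4.05, 3.89 and 3.38 CPM in the TDXd-titled replicates. It had the largest fall of the 53 genes with all treated libraries, -3.36 ± 0.22 (SE, adjusted p = 3.55e-06), or 10.3-fold. MIS12 and DSN1 are subunits of the MIS12 complex, which joins the inner to the outer layer. MIS12 was at 46.3, 38.5 and 39.96 CPM in PBS replicates 1 to 3, 37.4, 29.8 and 34.7 CPM in the PDXd-titled replicates and 35.97, 32.7 and 37.3 CPM in the TDXd-titled replicates. DSN1 was at 70.2, 43.7 and 45.1 CPM in PBS replicates 1 to 3, 27.9, 23.3 and 24.6 CPM in the PDXd-titled replicates and 26.8, 27.8 and 25.98 CPM in the TDXd-titled replicates. MIS12 lay only just below PBS in the treated libraries and was the gene that differed least, at -0.26 ± 0.09 (SE, adjusted p = 0.0310), which is under the fold change minimum, whereas DSN1 fell (log2 fold change -1.02 ± 0.14 SE, adjusted p = 0.000145). ZWINT, which links KNL1 to the corona, was at 512, 265 and 230 CPM in PBS replicates 1 to 3, 65.6, 74.5 and 51.4 CPM in the PDXd-titled replicates and 55.9, 56.4 and 50.7 CPM in the TDXd-titled replicates, and fell (log2 fold change -2.51 ± 0.22 SE, adjusted p = 1.07e-05). Of the SKA complex, which couples kinetochores to shrinking microtubules, SKA1 was at 17.04, 10.5 and 7.88 CPM in PBS replicates 1 to 3, 2.86, 4.02 and 3.18 CPM in the PDXd-titled replicates and 2.89, 2.93 and 2.85 CPM in the TDXd-titled replicates. SKA3 was at 73.6, 33.8 and 32.99 CPM in PBS replicates 1 to 3, 8.46, 12.1 and 8.32 CPM in the PDXd-titled replicates and 6.94, 8.72 and 6.61 CPM in the TDXd-titled replicates. They fell, with log2 fold changes of -1.92 ± 0.21 (SE, adjusted p = 4.77e-05) and -2.46 ± 0.26 (SE, adjusted p = 3.13e-05), with overlapping treated groups. The 4 subunits of the NDC80 complex, the main microtubule receptor, fell together, NUF2 at -2.51, SPC25 at -2.34, NDC80 at -2.19 and SPC24 at -1.92.

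In the corona, the outermost layer of unattached kinetochores, CENPE and CENPF fell and ZW10 did not pass the fold change minimum. CENPE, a kinesin that carries chromosomes to the spindle equator, was at 72.9, 46.6 and 38.5 CPM in PBS replicates 1 to 3, 8.42, 7.43 and 6.05 CPM in the PDXd-titled replicates and 5.22, 5.91 and 5.13 CPM in the TDXd-titled replicates, and fell (log2 fold change -3.05 ± 0.21 SE, adjusted p = 3.7e-06). ZW10, which recruits dynein to kinetochores and is also known to act in membrane traffic between the endoplasmic reticulum and the Golgi outside mitosis, was at 71.2, 55.5 and 58.4 CPM in PBS replicates 1 to 3, 45.6, 38.6 and 44 CPM in the PDXd-titled replicates and 42.2, 41.9 and 41.5 CPM in the TDXd-titled replicates. Its treated libraries lay below PBS with little spread, and its log2 fold change was -0.54 ± 0.09 (SE, adjusted p = 0.000408). CENPF, a microtubule-binding protein of the corona that the naming rule did not pick and that was added after its values were seen, fell (log2 fold change -3.03 ± 0.23 SE, adjusted p = 4.85e-06).

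Of the 5 checkpoint genes, 4 fell with each conjugate. BUB1, the kinase that starts checkpoint assembly, was at 80.3, 54.3 and 49.3 CPM in PBS replicates 1 to 3, 15.2, 11.2 and 10.5 CPM in the PDXd-titled replicates and 6.998, 7.71 and 6.73 CPM in the TDXd-titled replicates. The 3 groups did not overlap, with TDXd-titled lowest, and BUB1 fell (log2 fold change -2.66 ± 0.25 SE, adjusted p = 1.69e-05). BUB3, the partner through which BUB1 and BUB1B reach KNL1, was at 220, 155 and 150 CPM in PBS replicates 1 to 3, 120, 125 and 121 CPM in the PDXd-titled replicates and 118, 125 and 118 CPM in the TDXd-titled replicates. The 6 treated libraries lay close together, and the log2 fold change of BUB3, -0.53 ± 0.11 (SE, adjusted p = 0.00194), was under the fold change minimum with an adjusted p below the threshold. BUB1B, TTK, the kinase that phosphorylates KNL1, and MAD2L1, the inhibitor of CDC20, fell, at -2.44, -2.31 and -2.29.

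All 4 chromosomal passenger genes and both cohesion protection genes fell with each conjugate. BIRC5 (survivin), which brings the complex to the centromere, was at 134, 83.6 and 66.5 CPM in PBS replicates 1 to 3, 21.8, 24.2 and 17.2 CPM in the PDXd-titled replicates and 14.9, 15.7 and 12.2 CPM in the TDXd-titled replicates, and fell (log2 fold change -2.42 ± 0.23 SE, adjusted p = 1.98e-05). CDCA8 (borealin) was at 66.4, 36.02 and 34.9 CPM in PBS replicates 1 to 3, 9.54, 11.4 and 11.1 CPM in the PDXd-titled replicates and 8.43, 9.71 and 6.94 CPM in the TDXd-titled replicates. INCENP, the scaffold that activates the kinase AURKB, was at 111, 90.7 and 78.4 CPM in PBS replicates 1 to 3, 36.9, 34.7 and 38.5 CPM in the PDXd-titled replicates and 30.97, 30.6 and 32.8 CPM in the TDXd-titled replicates. INCENP kept more of its PBS level than its partners, with -1.45 ± 0.11 (SE, adjusted p = 5.05e-06) against -2.26 ± 0.21 (SE, adjusted p = 1.5e-05) for CDCA8 and -2.26 for AURKB. SGOL1 (SGO1, shugoshin), which protects centromeric cohesin until anaphase, was at 24.99, 12.4 and 10.8 CPM in PBS replicates 1 to 3, 2.25, 3.76 and 2.43 CPM in the PDXd-titled replicates and 2.51, 3.05 and 1.77 CPM in the TDXd-titled replicates. Its relative SGOL2 was at 31.96, 24.6 and 25.05 CPM in PBS replicates 1 to 3, 8.70, 7.71 and 6.13 CPM in the PDXd-titled replicates and 6.05, 6.38 and 5.65 CPM in the TDXd-titled replicates. They fell, with log2 fold changes of -2.61 ± 0.28 (SE, adjusted p = 3.45e-05) and -2.01 ± 0.15 (SE, adjusted p = 4.39e-06), and the treated groups of each overlapped one another but not PBS.

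Among the 6 spindle genes, all fell with each conjugate, with a median of -2.55 in all treated xenografts. PLK1, the kinase that drives centrosome maturation and mitotic entry, was at 116, 65.2 and 58.5 CPM in PBS replicates 1 to 3, 12.9, 15.9 and 8.65 CPM in the PDXd-titled replicates and 3.98, 6.13 and 3.99 CPM in the TDXd-titled replicates. TDXd-titled libraries lay below all PDXd-titled libraries, which lay far below PBS. PLK1 fell (log2 fold change -2.66 ± 0.33 SE, adjusted p = 0.00258) in PDXd-titled and (log2 fold change -4.08 ± 0.33 SE, adjusted p = 0.000552) in TDXd-titled xenografts, which are 6.33-fold and 16.9-fold. AURKA, the centrosomal kinase, was at 164, 98.4 and 94.01 CPM in PBS replicates 1 to 3, 29.1, 27.03 and 20.1 CPM in the PDXd-titled replicates and 18.1, 21.6 and 18.2 CPM in the TDXd-titled replicates. TPX2, its activator on spindle microtubules, was at 290, 200 and 184 CPM in PBS replicates 1 to 3, 55.9, 62.3 and 43.4 CPM in the PDXd-titled replicates and 40.1, 44.3 and 38.5 CPM in the TDXd-titled replicates. They fell, with log2 fold changes of -2.41 ± 0.20 (SE, adjusted p = 7.77e-06) and -2.24 ± 0.17 (SE, adjusted p = 5.91e-06). NUSAP1, a microtubule bundling protein, was at 88.01, 72.7 and 65.9 CPM in PBS replicates 1 to 3, 21, 23.7 and 14.1 CPM in the PDXd-titled replicates and 18.5, 17.9 and 15.6 CPM in the TDXd-titled replicates, and had the smallest fall of the spindle genes, -2.03 ± 0.15 (SE, adjusted p = 4.59e-06). HMMR, which positions the spindle, and ASPM, which holds its poles, fell, at -2.99 and -2.70.

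All 3 cytokinesis genes and all 4 genes of anaphase and exit fell with each conjugate. PRC1, which bundles the central spindle, was at 97.7, 65.4 and 60.3 CPM in PBS replicates 1 to 3, 17.1, 18.2 and 15.4 CPM in the PDXd-titled replicates and 12.4, 12.03 and 10.6 CPM in the TDXd-titled replicates, and fell (log2 fold change -2.38 ± 0.19 SE, adjusted p = 6.45e-06). ECT2, the exchange factor that turns on RhoA at the equator, was at 132, 118 and 118 CPM in PBS replicates 1 to 3, 46.9, 45 and 38.8 CPM in the PDXd-titled replicates and 37.2, 39.8 and 36.1 CPM in the TDXd-titled replicates, and fell (log2 fold change -1.59 ± 0.09 SE, adjusted p = 2.34e-06), less than the ring scaffold ANLN (-2.25). ESPL1 (separase), the protease that cuts cohesin, was at 75.1, 49.5 and 46.1 CPM in PBS replicates 1 to 3, 8.65, 8.77 and 7.18 CPM in the PDXd-titled replicates and 9.11, 6.66 and 5.98 CPM in the TDXd-titled replicates. PTTG1 (securin), its inhibitor, was at 94.6, 61.1 and 49.9 CPM in PBS replicates 1 to 3, 14.03, 14.04 and 12.6 CPM in the PDXd-titled replicates and 8.38, 10.1 and 8.18 CPM in the TDXd-titled replicates. The treated libraries of ESPL1 overlapped between conjugates and those of PTTG1 did not, and they fell, with log2 fold changes of -2.88 ± 0.17 (SE, adjusted p = 2.99e-06) and -2.61 ± 0.22 (SE, adjusted p = 9.63e-06). UBE2C, the ubiquitin-conjugating enzyme that serves the APC/C, was at 164, 112 and 106 CPM in PBS replicates 1 to 3, 30.1, 31.95 and 25.7 CPM in the PDXd-titled replicates and 21.2, 26.2 and 21.5 CPM in the TDXd-titled replicates, and fell (log2 fold change -2.29 ± 0.16 SE, adjusted p = 4.21e-06). CDC20, the activator of the APC/C in mitosis, fell, at -2.81.

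All 5 condensin I genes fell with each conjugate. NCAPG, a subunit found in condensin I alone, was at 47.3, 32.5 and 30.1 CPM in PBS replicates 1 to 3, 8.19, 9.78 and 6.15 CPM in the PDXd-titled replicates and 6.30, 7.28 and 4.96 CPM in the TDXd-titled replicates. NCAPD2, likewise of condensin I, was at 118, 110 and 98.8 CPM in PBS replicates 1 to 3, 52.3, 49.6 and 46.01 CPM in the PDXd-titled replicates and 47.1, 46.8 and 41.9 CPM in the TDXd-titled replicates. NCAPG fell (log2 fold change -2.36 ± 0.20 SE, adjusted p = 9.26e-06) and NCAPD2 (log2 fold change -1.20 ± 0.08 SE, adjusted p = 3.7e-06). SMC2 and SMC4, the ATPase pair that condensin I shares with condensin II, were unequal. SMC2 was at 60.3, 50.7 and 53.4 CPM in PBS replicates 1 to 3, 30.2, 27.9 and 24.1 CPM in the PDXd-titled replicates and 26.2, 25.3 and 23.5 CPM in the TDXd-titled replicates. SMC4 was at 246, 185 and 180 CPM in PBS replicates 1 to 3, 51.8, 54.5 and 39.3 CPM in the PDXd-titled replicates and 43.1, 42.8 and 36.1 CPM in the TDXd-titled replicates. SMC2 fell (log2 fold change -1.06 ± 0.09 SE, adjusted p = 1.01e-05) and SMC4 (log2 fold change -2.19 ± 0.14 SE, adjusted p = 3.32e-06), and NCAPH, which closes the ring, at -2.12.

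**Figure D2:**
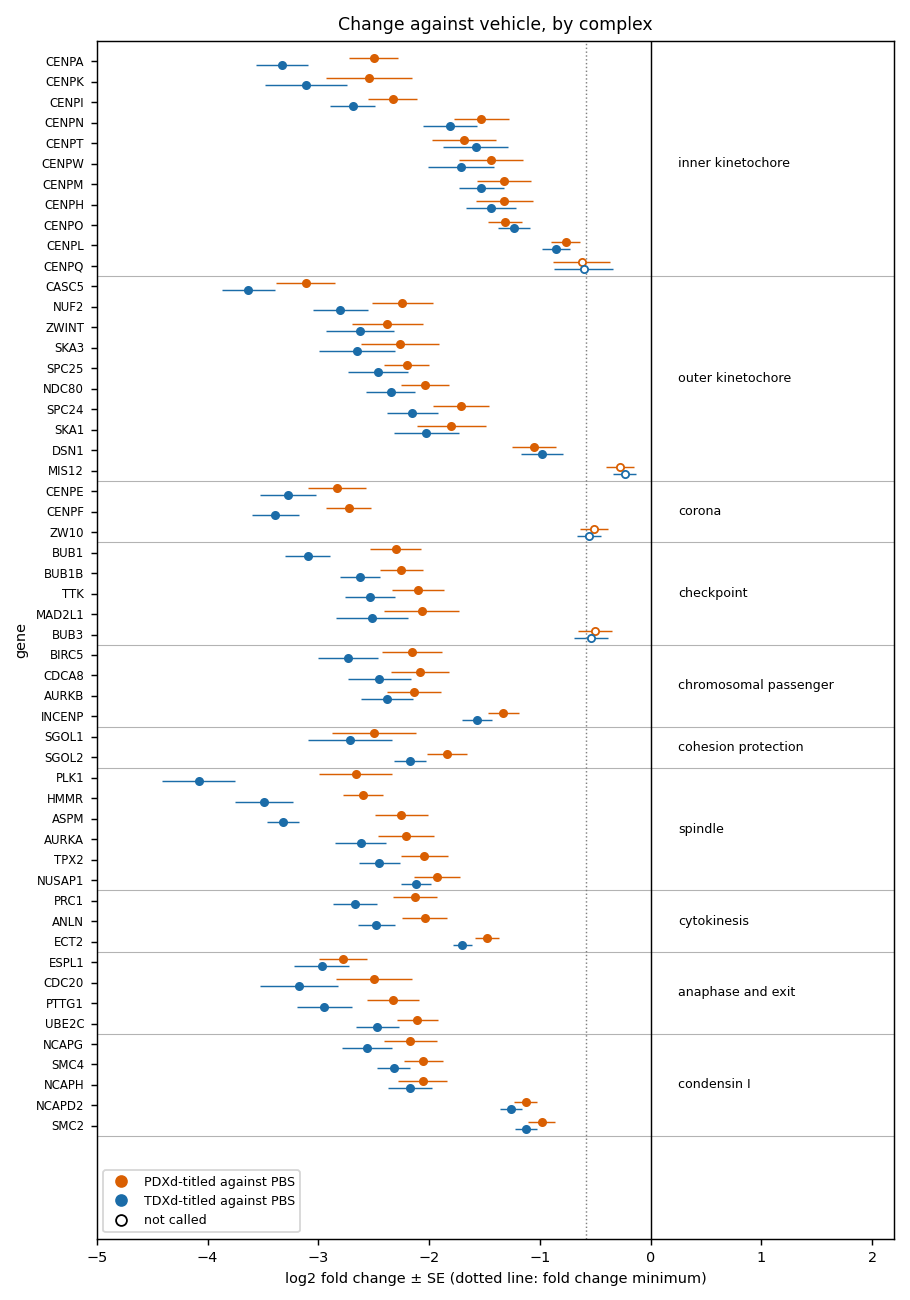
Log2 fold change against PBS (horizontal axis) with its SE (bars) for each gene (vertical axis, grouped by complex) in PDXd-titled (orange) and TDXd-titled (blue) xenografts, filled where called and open where not. CENPQ, MIS12, ZW10 and BUB3 are open in both, and the longest falls were those of PLK1 in TDXd-titled (-4.08) and CASC5 in PDXd-titled xenografts (-3.12).

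The order of the genes by level differed between PBS and treated xenografts. Levels were divided by the length of all exons annotated for a gene in GENCODE v44, over all its transcripts. This can exceed the length of the message expressed here, so ranks between genes are approximate. On this scale, levels in PBS ran from 141 CPM per kb for ZWINT, 99.0 for UBE2C and 62.2 for TPX2 down to 2.59 CPM per kb for CENPK. BUB3 ranked 13th, ZW10 14th and MIS12 29th of the 53 genes in PBS, at 21.4, 21.2 and 13.2 CPM per kb. In TDXd-titled xenografts, where ZWINT (22.8 CPM per kb) and UBE2C (17.9) still led, BUB3 ranked 3rd, ZW10 4th and MIS12 6th, at 14.7, 14.4 and 11.2 CPM per kb, while PLK1, at 16.8 CPM per kb in PBS, stood at 0.988. BUB3 and ZW10 differed by less than the SD of BUB3 in PBS and in TDXd-titled xenografts, so their order is not beyond their spread.

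**Figure D3:**
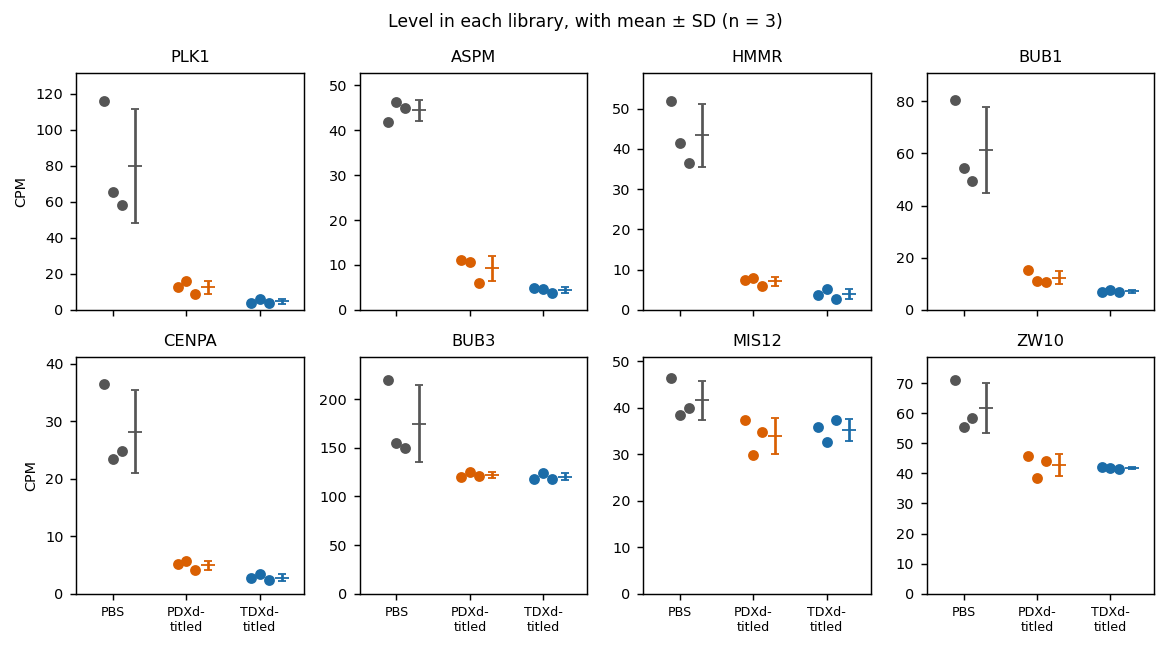
CPM of 8 genes (1 panel each, vertical axes from 0) in each of the 3 libraries of each group, with mean ± SD beside the points (n = 3). PLK1, ASPM, HMMR, BUB1 and CENPA dropped to small parts of their PBS level, and BUB3, MIS12 and ZW10 kept most of theirs.

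These proteins act with partners, and the ratio of their messages within a library was compared for 10 pairs, a measure that does not depend on scaling between libraries. For BUB1/BUB3 the log2 ratio was -1.45, -1.51 and -1.61 in PBS, -2.98, -3.49 and -3.52 in PDXd-titled and -4.08, -4.01 and -4.13 in TDXd-titled replicates. It was lower in all treated libraries than in any PBS library, by 2.18, and lower in TDXd-titled than in PDXd-titled libraries. The log2 ratio of ZWINT/ZW10 was 2.84, 2.26 and 1.97 in PBS, 0.52, 0.95 and 0.22 in PDXd-titled and 0.40, 0.43 and 0.29 in TDXd-titled replicates, and that of NCAPG/NCAPD2 was -1.32, -1.75 and -1.71 in PBS, -2.67, -2.34 and -2.90 in PDXd-titled and -2.90, -2.68 and -3.07 in TDXd-titled replicates. These dropped by 1.89 and 1.16, again with no overlap between treated and PBS libraries. For SMC2/SMC4 it was -2.03, -1.86 and -1.75 in PBS, -0.78, -0.97 and -0.70 in PDXd-titled and -0.72, -0.76 and -0.62 in TDXd-titled replicates, a rise of 1.12 with no overlap. CDCA8/INCENP, DSN1/MIS12 and SKA3/SKA1 dropped by 0.77, 0.73 and 0.53, also with no overlap. For each of these 7 pairs an exact two-sided permutation test over the 84 divisions of 6 and 3 libraries gave p = 0.0119, the smallest it can give, and 0.0170 after Benjamini-Hochberg adjustment over 10 pairs. The other 3 pairs overlapped. The treated minus PBS difference in log2 ratio was 0.15 for TPX2/AURKA (exact p = 0.0714, adjusted 0.0893), -0.27 for ESPL1/PTTG1 (exact p = 0.226, adjusted 0.251) and 0.05 for CENPW/CENPT (exact p = 0.786, adjusted 0.786). When any 1 PBS library was left out, the adjusted p of the 7 pairs became 0.0510, since fewer divisions are possible, and their differences kept their sign. The pairs were chosen with earlier results of these data known. Some set a gene near its PBS level (BUB3, MIS12 or ZW10) against a partner that fell. Their p-values therefore describe the separation and are not independent evidence of it. How often other pairs of genes separate was not computed.

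**Figure D4:**
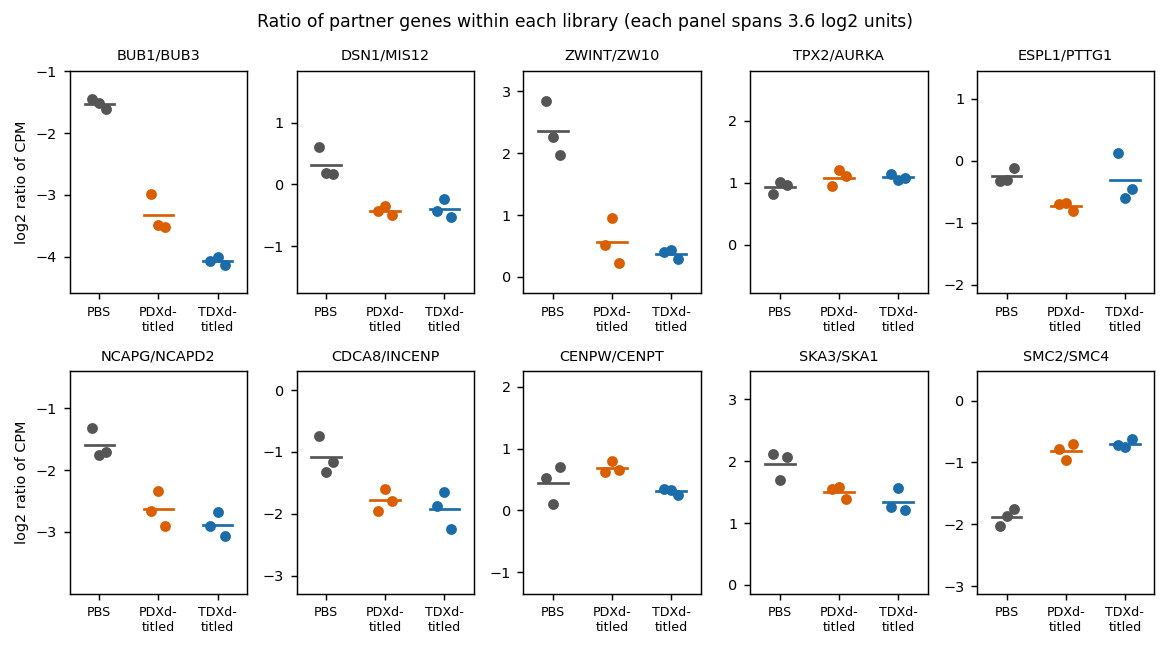
Log2 ratio of CPM of 2 partner genes (vertical axis) in each library of each group, with the group mean as a line, for 10 pairs and with the same span in every panel. Treated and PBS libraries separate for 7 pairs, most widely for BUB1/BUB3, and overlap for TPX2/AURKA, ESPL1/PTTG1 and CENPW/CENPT.

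The second question was whether the genes differed between the conjugates, tested directly without the PBS libraries. None of the 53 genes was called by edgeR's quasi-likelihood test, where 4 of 14653 genes (0.0273%) were, and the smallest adjusted p of the 53 was 0.348. At an unadjusted p under 0.05, 23 of 53 genes (43.4%) were higher in PDXd-titled xenografts, against 2.25% of all genes, and 0 were lower. By sign alone 48 of 53 were higher in PDXd-titled, as were 7607 of 14653 genes. For 16 of 53 genes (30.2%) every TDXd-titled library lay below every PDXd-titled library, against 4.01% of all genes, and CENPO alone showed the reverse. The Wald test of DESeq2 called 8 of the 53 genes, PLK1, BUB1, ASPM, PTTG1, CDC20, CENPF, HMMR and CENPA, all higher in PDXd-titled. It called 23 of the 13201 genes to which it gave an adjusted p (0.174%). At an unadjusted p under 0.05 were 29 of the 53 genes. Among all genes to which it gave an unadjusted p, a set that need not be the 13201, 531 were, in either direction. The rank of the 8 called genes among members was not fixed by the naming rule, and they were singled out after their values were seen.

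PLK1 differed most, with 1.41 ± 0.24 (SE, adjusted p = 0.348) for PDXd-titled over TDXd-titled. ASPM was at 41.9, 46.3 and 45.04 CPM in PBS replicates 1 to 3, 11.1, 10.6 and 5.99 CPM in the PDXd-titled replicates and 4.96, 4.71 and 3.67 CPM in the TDXd-titled replicates. HMMR was at 51.9, 41.4 and 36.6 CPM in PBS replicates 1 to 3, 7.30, 8.002 and 5.93 CPM in the PDXd-titled replicates and 3.66, 5.15 and 2.71 CPM in the TDXd-titled replicates. Every TDXd-titled library of both lay below every PDXd-titled library, of which replicate 3 was the lowest, and the log2 fold changes were 1.05 ± 0.23 (SE, adjusted p = 0.643) and 0.88 ± 0.23 (SE, adjusted p = 1.00). CDC20 was at 162, 77.8 and 67.4 CPM in PBS replicates 1 to 3, 16.9, 21.3 and 15.5 CPM in the PDXd-titled replicates and 12.7, 11.6 and 9.59 CPM in the TDXd-titled replicates, with 0.66 ± 0.14 (SE, adjusted p = 0.604). CENPA, BUB1, CENPF and PTTG1 had values of 0.82 ± 0.20 (SE, adjusted p = 0.964), 0.78 ± 0.15 (SE, adjusted p = 0.397), 0.65 ± 0.16 (SE, adjusted p = 0.998) and 0.61 ± 0.12 (SE, adjusted p = 0.397). By complex, the genes at an unadjusted p under 0.05 were 5 of 6 in the spindle, 4 of 5 in the checkpoint, 3 of 3 in cytokinesis, 3 of 4 in anaphase and exit, 3 of 4 in the chromosomal passenger complex, 2 of 3 in the corona, 2 of 10 in the outer and 1 of 11 in the inner kinetochore, and 0 in condensin I and cohesion protection. The median log2 fold change between the conjugates was highest for the spindle (0.64) and lowest for condensin I (0.13) and the inner kinetochore (0.19), against 0.32 for all 53 genes and 0.0044 for all genes tested. Of the 4 genes nearest to their PBS level, BUB3 had 0.02 ± 0.06 (SE, adjusted p = 1.00), ZW10 0.03 ± 0.08 (SE, adjusted p = 1.00), MIS12 -0.06 ± 0.10 (SE, adjusted p = 1.00) and CENPQ -0.03 ± 0.12 (SE, adjusted p = 1.00). Of the 17 of the 23 genes with a promoter in the table, 14 held CHR letters, as did 14 of the other 26. The median log2 fold change between the conjugates was 0.32 for the 28 genes with CHR letters and 0.26 for the 15 without. Whether CHR letters go with the difference between the conjugates was not tested.

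**Figure D5:**
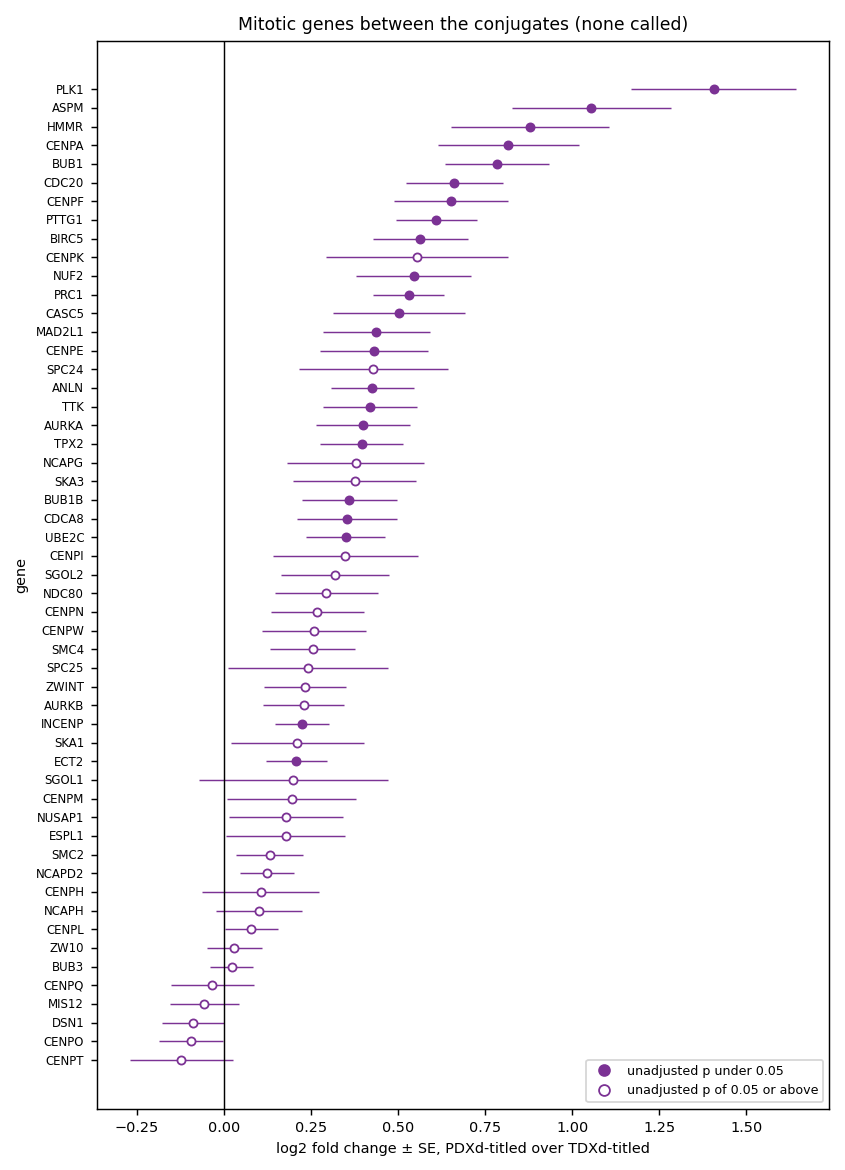
Log2 fold change of PDXd-titled over TDXd-titled xenografts (horizontal axis) with its SE (bars) for each of the 53 genes (vertical axis, in order), filled at an unadjusted p under 0.05. Most points lie to the right of 0, led by PLK1 (1.41) and ASPM (1.05), and no gene was called.

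PDXd-titled replicate 3 lay nearest to the TDXd-titled libraries. It was the lowest PDXd-titled library for 43 of the 53 genes and lay below the highest TDXd-titled library for 34, against 10 and 9 genes for replicates 1 and 2. It was singled out on these values, so a larger difference without it is built into that choice. When any other treated library was left out, 0 of the 53 genes were called by edgeR. Without PDXd-titled replicate 3, edgeR called 2 of the 53 genes, PLK1 (1.61, adjusted p = 0.0383) and ASPM (1.29, adjusted p = 0.0383), where 8 of 14882 genes (0.0538%) were, and 35 of 53 were at an unadjusted p under 0.05. The share of all genes at that p in either direction was 6.87% there, against 3.69% with every library of both groups. With all 9 libraries in 1 fit 11 of 53 were, where the share of all genes was 1.56%. In these fits the counts over the 53 genes and over all genes moved the same way, and in other fits they did not. Without PDXd-titled replicate 1 the counts were 18 and 774, and without TDXd-titled replicate 2 they were 27 and 351. With every library of both groups they were 23 and 540. The conjugate behind each direction remains that of the title only.

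Other genes of the division machinery, from lists of named complexes, were read against the 17.1% of all genes called lower and the 15.2% called higher with all treated libraries. Of 18 further centromere and kinetochore genes 12 fell, led by HJURP (-2.52), the chaperone that loads CENPA, and OIP5 (-2.16), which primes that loading, with a list median of -1.12. Of 15 APC/C genes 2 fell, UBE2S (-1.35), which extends its ubiquitin chains, and the scaffold ANAPC1 (-0.66), with a median of -0.25. That share is near the share of all genes called lower. Of 13 cohesin genes 2 fell, a share likewise near that of all genes. They were ESCO2 (-2.17) and CDCA5 (-1.80), both of which establish or guard cohesion in S phase, and the list median was -0.31. Of 3 condensin II genes 2 fell, NCAPG2 (-1.63) and NCAPD3 (-1.58). Of 15 genes of the gamma-tubulin ring and augmin, which nucleate microtubules, 9 fell, with HAUS7 (-2.03) and HAUS5 (-1.16) farthest and a median of -0.62. HAUS7 was barely detected, at 0.61 to 1.32 CPM in PBS and 0.076 to 0.41 CPM in treated libraries.

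Among 16 genes of phosphatases that reverse mitotic phosphorylation and of their regulators, the median was 0.06. MASTL (-0.88), the kinase that restrains PP2A, fell and the phosphatase CDC14A (1.56) rose. Of 15 midbody and ESCRT-III genes 5 fell, led by CIT (-2.69), a kinase of the midbody, and CEP55 (-2.39), which recruits the abscission machinery. In this list 2 ESCRT genes rose, CHMP2A (0.64) and TSG101 (0.59), named here after their values were seen. The share that rose is near the share of all genes called higher. Of 17 dynein and dynactin genes 0 were called, with 12 at an unadjusted p under 0.05 where 61.1% of all genes were, DYNLRB1 (0.57) and DYNLT1 (0.47) farthest from 0 and a median of 0.15. All 19 S phase genes fell, CDC45 (-2.22) and GINS2 (-2.14) most, with a median of -1.40 against -2.26 for the 53 genes. Between the conjugates the S phase median was 0.09, with 17 of 19 genes higher in PDXd-titled by sign and 0 of 19 at an unadjusted p under 0.05. At that p were 2 of 15 midbody and ESCRT-III genes, CEP55 (0.43) and KIF23 (0.43). Of the 3 condensin II genes 1 was, NCAPD3 (0.22), where 3.69% of all genes were. These genes were higher in PDXd-titled and were named after their values were seen. As with the 53 genes, none in these lists was called between the conjugates by edgeR.

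Counts of 16 of the 53 genes are uncertain because another listed gene overlaps them and the use of strand in counting is not stated, namely CENPA, CENPL, CENPN, CENPO, CENPT, NUF2, SPC24, SPC25, MIS12, BUB1B, SGOL2, PLK1, ANLN, NCAPG, NCAPD2 and SMC4. GENCODE v44 names a pseudogene after 13 of the genes, among them BUB1, BUB3, AURKA, CDC20 and UBE2C, and PTTG1 has close gene copies, so reads could be shared there too.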

How the data were processed

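Tumor RNA was sequenced from TruSeq mRNA libraries. The authors trimmed adapters (Cutadapt), mapped reads (STAR) and assigned them to genes (featureCounts), and deposited unnormalized counts in 1 table per conjugate. Whether strand was used is not given in the sources used here. PBS columns are identical between tables, and no gene listed in a table has fewer than 2 libraries with 5 or more counts. The study's methods name GRCh38, but the tables' gene coordinates come from an older, unnamed build and are not printed.

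The deposited counts were filtered with filterByExpr, TMM-normalized and tested in edgeR 4.0.16 (R 4.3.3) with its quasi-likelihood F test, which is two-sided, and p-values were adjusted over all genes tested (Benjamini-Hochberg). Thresholds (adjusted p at or below 0.05, fold change of at least 1.5) follow the study's methods, which used DESeq2. Pairs of groups were fitted on their own 6 libraries, and the pooled comparison with PBS used all 9. Log2 fold changes are those of the fit, and CPM are counts scaled to TMM-adjusted library sizes. Ratios of partner genes used log2 CPM with a prior count of 2. Replicates of a group differed by a chi-square statistic of 17.2 to 388 per gene, so none was a duplicate within sampling noise.

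Values in every library are given for the gene with the largest and the smallest change of each complex, every gene not called against PBS, and both genes of each pair. At most 2 genes of each further list are named, by their fold change, beside genes said to be chosen after their values were seen. Other members are given by their fold change, and ASPM, HMMR, CDC20 and CENPF were added after their values were seen. Members, lists, pairs and tests were chosen with earlier results of these data known. Scripts were tested on simulated counts. Alternatives were DESeq2 1.42.0, RLE size factors, other filters, adjusted p alone, glmTreat, a joint fit of all 9 libraries and omission of each library in turn. KLK2, KLK3, CD163, TYROBP and PECAM1 were not analysed here.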

Additional observations from a re-analysis of the deposited data

How the results depend on the processing

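Against PBS, the number of the 53 genes called lower was 49 in PDXd-titled and 49 in TDXd-titled xenografts and 50 in both together with DESeq2, with RLE size factors and with either other filter on low counts. It was 51, 51 and 53 with the adjusted p alone and 45, 47 and 49 with glmTreat against a fold change of 1.5, and with 1 library left out it ranged from 48 to 50, 49 to 51 and 49 to 52. The median log2 fold change ranged from -2.24 to -1.82, -2.58 to -2.17 and -2.40 to -2.01 with 1 library left out, and was nearest to 0 without PBS replicate 1. CENPW lost its call in PDXd-titled xenografts without PDXd-titled replicate 3 (adjusted p = 0.0565), CENPQ gained one there with all 9 libraries in 1 fit (adjusted p = 0.0461), and ZW10 and BUB3, near the fold change minimum, were called in some fits without PBS replicate 2 or 3. Between the conjugates, 0 of 53 genes were called with edgeR and 8 with DESeq2, where leaving out 1 library in edgeR gave 0 to 2. At an unadjusted p under 0.05 the count was 23, became 11 with all 9 libraries in 1 fit, 29 with DESeq2, and ranged from 16 to 35 with 1 library left out, highest without PDXd-titled replicate 3. Over all genes the counts at that p, in either direction, were 540, 235, 531 and 320 to 1023. The cause of these differences was not tested. With 1 library left out, the treated minus PBS difference in log2 ratio ranged from -2.32 to -2.09 for BUB1/BUB3, -2.08 to -1.65 for ZWINT/ZW10, -1.25 to -1.03 for NCAPG/NCAPD2, -0.90 to -0.60 for CDCA8/INCENP, -0.80 to -0.59 for DSN1/MIS12, -0.66 to -0.45 for SKA3/SKA1 and 1.05 to 1.19 for SMC2/SMC4, with adjusted p of 0.0223 to 0.0510. Values near 0 were less stable. CENPW/CENPT ranged from -0.11 to 0.18 and turned negative without PBS replicate 2 (-0.115) and without PDXd-titled replicate 2 (-0.0055), TPX2/AURKA ranged from 0.092 to 0.19 and passed the threshold without PDXd-titled replicate 1 (0.179, adjusted p = 0.0223), and ESPL1/PTTG1 ranged from -0.40 to -0.20 and passed it without TDXd-titled replicate 1 (-0.395, adjusted p = 0.0223). The other prior counts changed no call. No paired analysis was possible because titles carry codes of unstated meaning and no replicate number that the groups share. Every one of the 53 genes had at least 78 counts in every library, and each group held 3 libraries.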
